A study of Mus musculus with 4 samples.

Results

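The genes Prl2c2, Prl2c3, Dynap, Adam2, Gdf15, Nppb, Hmox1, Wfdc2 and Rhox5 are 9 of the 32285 genes counted by single-cell RNA-seq in MC38 tumors. They were taken by symbol, as genes of the tumor line that had stood higher with the RAC1 A159V mutation in these same libraries, so their differences between genotypes are descriptions and were not tested. Each of 4 groups had 1 library. WT tumors were given IgG or anti-PD1, and so were tumors with A159V, which makes the groups WT IgG and WT anti-PD1 beside A159V IgG and A159V anti-PD1. MC38 is a mouse colon cancer line, and the study grew it under the skin of syngeneic C57BL/6 mice. A159V lines carried the mutation in both copies of the endogenous Rac1 gene through CRISPR-Cas9 editing, and the study used 1 clone unless it stated otherwise. Mice received the anti-PD1 antibody RMP1-14 or an IgG isotype control, and before capture magnetic beads split CD45+ from CD45- cells, which were then pooled again at a fixed ratio. With 1 library a group, genotype or treatment cannot be told apart from the clone, the mice or the library, and every interval below covers counting error alone.

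These genes belong to different systems. Prl2c2 and Prl2c3 encode proliferins, secreted hormones of the prolactin family that the mouse placenta makes and that growing mouse cells can make in culture. Gdf15, a stress-induced cytokine of the TGF-beta superfamily, Nppb, the B-type natriuretic peptide of the heart, and Wfdc2, a secreted protein of the whey acidic protein family, also leave the cell. Adam2 is a membrane protein of sperm needed for fertilization, and Dynap is a membrane protein that binds dynactin. Hmox1 is the inducible heme oxygenase, which breaks down heme, is switched on by the transcription factor NRF2 and is also abundant in macrophages. Rhox5 is an X-linked homeobox gene of the reproductive tract that many cultured tumor lines express.

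Prl2c2 (chr13:12996125-13005383) and Prl2c3 (chr13:12790816-12800079) lie on the minus strand of chromosome 13 in GRCm38, and their sequences limit how well reads can be assigned to one or the other. Their coding sequences of 675 bases in GENCODE M21 differed at 3 positions, which left 99.6% of the bases identical. The substitutions from Prl2c2 to Prl2c3, counted from the first coding base, were T14C, C200A and T319G. Each stands in a stretch of 30 coding bases with the differing base in capitals.
Prl2c2, coding bases 1 to 30: atgctcccttcttTgattcaaccatgctcc
Prl2c3, coding bases 1 to 30: atgctcccttcttCgattcaaccatgctcc
Prl2c2, coding bases 185 to 214: tttcagaactgttcaCtgaatttgaaaaac
Prl2c3, coding bases 185 to 214: tttcagaactgttcaAtgaatttgaaaaac
Prl2c2, coding bases 304 to 333: aggctcacacactatTcagctcttctgaaa
Prl2c3, coding bases 304 to 333: aggctcacacactatGcagctcttctgaaa
After the last difference came 356 identical coding bases, and the 110 bases after the stop codon that both transcripts share held 0 differences. The libraries were read from the 3' end, so the 2 genes are given apart as the counts have them and also as a sum with Prl2c5, their low neighbor on the plus strand at chr13:13182715-13191923.

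The RefSeq window of 250 bases before the Prl2c3 start (GRCm38.p6, chr13:12800080-12800329, minus strand) is shown because Prl2c3 had the highest ratio of A159V anti-PD1 to WT IgG. Capitals mark TGAATCA, a match to TGANTCA, a loose form of the AP-1 motif in which N is any base. As a pattern, TGANTCA reads the same on both strands, and it was found in 6.75% of 32851 such windows.
Prl2c3 upstream window: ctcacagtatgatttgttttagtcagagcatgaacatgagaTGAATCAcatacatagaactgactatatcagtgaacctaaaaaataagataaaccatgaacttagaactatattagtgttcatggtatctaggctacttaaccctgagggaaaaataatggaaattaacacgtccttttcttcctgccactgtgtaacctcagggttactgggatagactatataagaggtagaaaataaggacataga
Windows were found for Prl2c3, Gdf15, Nppb, Wfdc2 and Rhox5, with 2 each for Gdf15 and Wfdc2. Nppb alone of these held TATAAA (12.4% of all windows, either strand), and Gdf15 and Rhox5 held CCAAT (33.8%). The Gdf15 match was in the window that lies inside the gene span given here (chr8:70632096-70632345), and the RefSeq window of Rhox5 (chrX:37754358-37754607) lies well upstream of the GENCODE position. The NRF2 motif TGACNNNGC (10.2%) and the ATF4 motif TGATGNAA (3.45%), searched on both strands, were found in 0 of these windows. Prl2c2, Dynap, Adam2 and Hmox1 were not among the genes searched. Other positions in GRCm38 were chr14:66027329-66077733 for Adam2, chr8:70629393-70632456 for Gdf15, chr4:147985788-147987205 for Nppb, chr8:75093621-75100589 for Hmox1, chr2:164562413-164568510 for Wfdc2 and chrX:37804842-37808876 for Rhox5. The position of Dynap is not given here.

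Tumor cells were taken as cells with at least 5000 UMIs, at least 2 UMIs of Hmga2 and Tm4sf1 together and 0 of Ptprc, the gene of CD45. The gate held 1589 cells of WT IgG and 491 of WT anti-PD1, while A159V IgG gave 2229 cells and A159V anti-PD1 1706, from libraries of 54402632 to 125227747 UMIs that shared 13 to 22 barcodes a pair. The epithelial markers Krt8, Krt18 and Epcam were at most 0.364 CPM (counts per 1e+06 UMIs of the gated cells) in each library, Msln was at 21.3 to 29.7 CPM outside WT anti-PD1, and the summed immune markers were at 20.3 to 36.7 CPM. In WT anti-PD1 the gate took mainly other cells: the 6 fibroblast markers summed to 37499 CPM there, against 1122 for WT IgG, 414 for A159V IgG and 590 for A159V anti-PD1, and only 16 cells had fewer than 3 UMIs of 7 stromal and endothelial genes. WT anti-PD1 is therefore left out of the comparisons. Median depth of the gated cells was 31611 UMIs in WT IgG, 32949 in A159V IgG and 42882 for A159V anti-PD1. Rac1 itself, the edited gene, was at 441, 411 and 405 CPM in these libraries.

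Between A159V IgG and WT IgG, 7 of the 9 genes were at least 2-fold higher in A159V, where 1.31% of the 3654 genes of at least 50 CPM were. Because the genes were chosen on this contrast, nothing is read from that count. The genes at 2-fold or more were Prl2c2, Prl2c3, Dynap, Adam2, Gdf15, Hmox1 and Wfdc2, while the name of the set did not hold for Rhox5 and, under IgG, for Nppb. The median log2 ratio was 1.35 for the 9 genes and 0.06 for all genes tested. In A159V anti-PD1 over the same WT IgG library, 7 of 9 were again at least 2-fold higher, where 1.05% of 3716 genes were, with Nppb now among them and Gdf15 below. The median of the 9 was 1.55 there, against 0.10 for all genes. These comparisons share the WT library and are not independent. The gate gene Tm4sf1 was itself at 308 CPM in WT IgG, 187 in A159V IgG and 181 for A159V anti-PD1, and requiring 4 UMIs of the gate genes left 5 of the 9 genes at least 2-fold higher under IgG, where 1.25% of 3607 genes were, without Gdf15 and Hmox1.

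**Figure D1:**
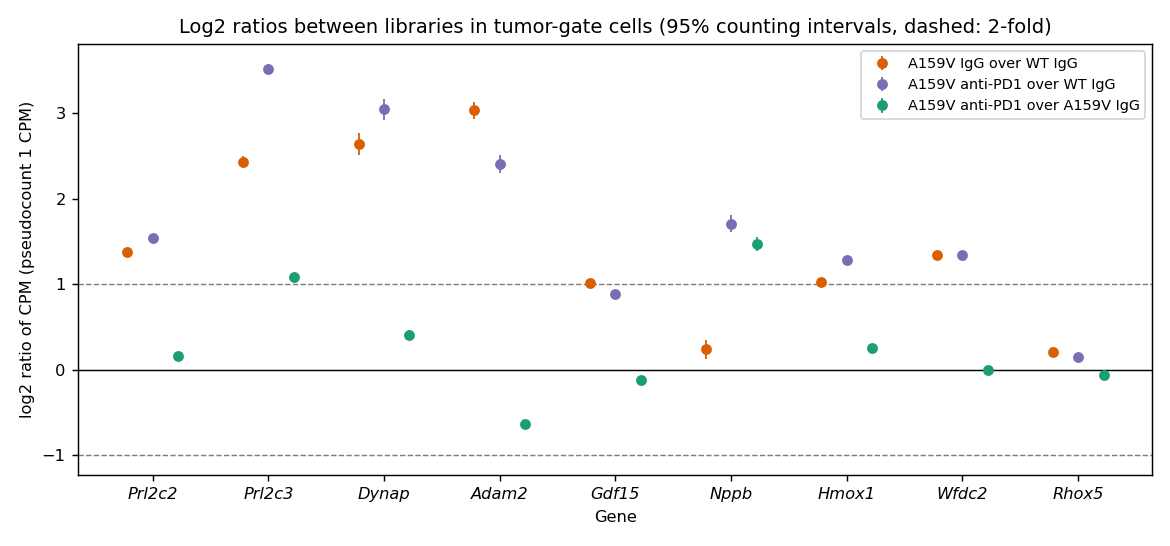
Log2 ratio of CPM (pseudocount 1 CPM) for each gene in 3 comparisons of tumor-gate cells; bars are 95% counting intervals and dashed lines mark 2-fold. Prl2c3, Dynap and Adam2 stand above 2 in both comparisons with WT IgG, and only Prl2c3 and Nppb pass 2-fold between the A159V libraries.

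Among the secreted hormones, Prl2c2 was at 202 CPM in WT IgG (95% Poisson interval 199 to 206), 530 in A159V IgG (524 to 535) and 593 for A159V anti-PD1 (588 to 599). Both A159V libraries were high and near each other, with log2 ratios to WT IgG of 1.38 and 1.55. Prl2c3 was at 39.0 CPM in WT IgG (37.4 to 40.7), 216 in A159V IgG (212 to 219) and 459 for A159V anti-PD1 (454 to 464). Its levels thus stood apart in all 3 libraries, with a log2 ratio of 2.44 (2.37 to 2.50) between A159V IgG and WT IgG and 3.52 (3.46 to 3.58) between A159V anti-PD1 and WT IgG. The summed Prl2c2, Prl2c3 and Prl2c5 level was 242, 748 and 1056 CPM, or a log2 ratio of 1.62 under IgG. This sum does not change if counted reads move between the paralogs. Reads that were counted for none of them are missing from it, and how many there were was not measured.

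**Figure D2:**
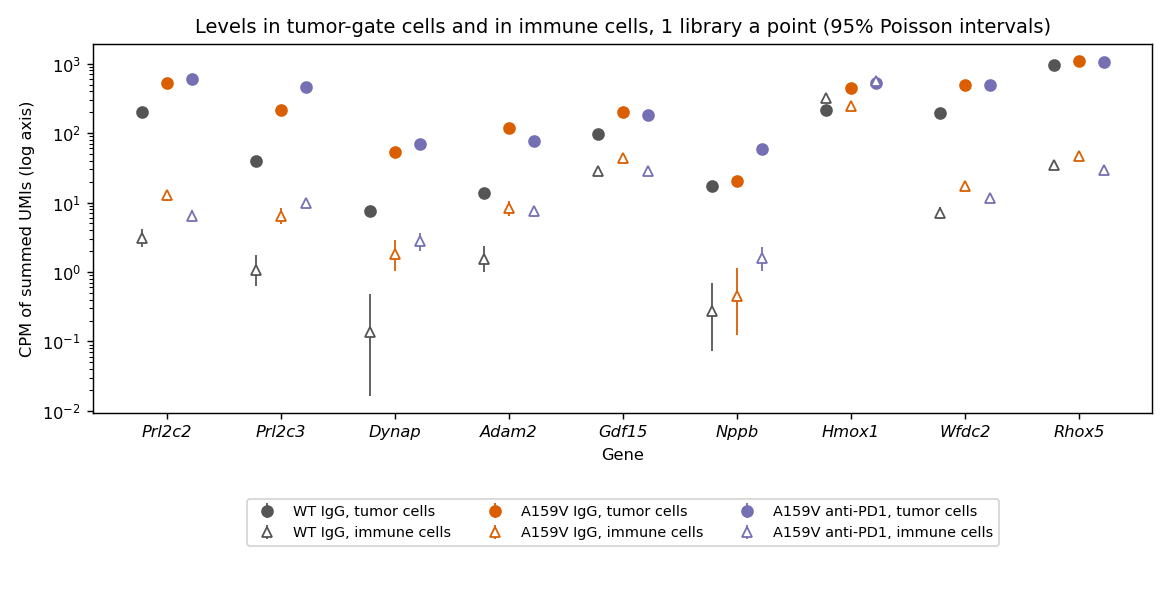
CPM (log axis) of each gene in tumor-gate cells (filled circles) and in immune cells (open triangles) of 3 libraries, with 95% Poisson intervals. Tumor levels lie far above immune levels except for Gdf15 and Hmox1, and Hmox1 reads higher in the immune cells of WT IgG (322 CPM) than in its tumor cells (218 CPM).

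The membrane proteins showed the highest ratios under IgG. Adam2 was at 13.8 CPM in WT IgG (12.8 to 14.8), 120 in A159V IgG (118 to 123) and 77.2 for A159V anti-PD1 (75.2 to 79.1). Its log2 ratio of 3.04 (2.94 to 3.14) ranked 1 of 3654 genes for A159V IgG over WT IgG. Dynap was at 7.60 CPM in WT IgG (6.89 to 8.37), 52.8 in A159V IgG (51.1 to 54.4) and 70.1 for A159V anti-PD1 (68.2 to 72.0), and ranked 2 with a log2 ratio of 2.64 (2.51 to 2.77). Both reached the 50 CPM minimum only through A159V, and the genes were chosen on this contrast, so nothing is read from these ranks. Adam2 and Dynap moved in opposite directions between the A159V libraries. Adam2 was lower by a log2 ratio of -0.63 in A159V anti-PD1 and Dynap higher by 0.40, both short of 2-fold.

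Wfdc2 was at 195 CPM in WT IgG (191 to 199), 497 in A159V IgG (492 to 502) and 494 for A159V anti-PD1 (490 to 499), so the A159V libraries did not differ beyond their counting intervals (log2 ratio -0.01, interval -0.03 to 0.01). Gdf15 was at 98.0 CPM in WT IgG (95.4 to 101), 198 in A159V IgG (195 to 202) and 182 for A159V anti-PD1 (179 to 185). Its ratio under IgG lay at the 2-fold line, with a log2 value of 1.01 (0.97 to 1.06). Nppb was at 17.3 CPM in WT IgG (16.2 to 18.4), 20.6 in A159V IgG (19.5 to 21.6) and 58.9 for A159V anti-PD1 (57.2 to 60.6). Among the libraries compared, Nppb was therefore high in A159V anti-PD1 alone, with log2 ratios of 0.24 under IgG and 1.71 for A159V anti-PD1 over WT IgG.

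Hmox1 was at 218 CPM in WT IgG (214 to 222), 445 in A159V IgG (440 to 449) and 531 for A159V anti-PD1 (526 to 536). Its log2 ratio under IgG also lay at the 2-fold line, at 1.02 (0.99 to 1.05), and scaling by the median of all gene ratios put Hmox1 at 0.95 and Gdf15 at 0.93. Rhox5 was at 949 CPM in WT IgG (940 to 957), 1093 in A159V IgG (1085 to 1100) and 1051 for A159V anti-PD1 (1044 to 1058). Its log2 ratio was 0.20 under IgG and ranked 1260 of 3654 genes, so the difference between genotypes was small in the 3 libraries compared.

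Within A159V, anti-PD1 over IgG, 2 of the 9 genes passed 2-fold in either direction, where 0.2% of 3498 genes did. Both were higher with anti-PD1: Nppb by a log2 ratio of 1.47 (1.39 to 1.55), ranked 2, and Prl2c3 by 1.09 (1.06 to 1.11), ranked 5. Nppb, at 20.6 CPM in A159V IgG, reached the 50 CPM minimum only with anti-PD1. Nothing is therefore read from its rank or its place in the count. At the other end, Adam2 ranked 3490 of 3498. The median of the 9 genes was 0.16, against 0.05 for all genes. Each side was 1 library, so whether another pair of tumors would show these differences was not tested.

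The share of tumor cells with at least 1 UMI was taken after thinning each cell to 5000 UMIs, so that depth was alike. For all 9 genes it was higher in both A159V libraries than in WT IgG, which 55.7% of 3759 genes also showed. Prl2c2 was found in 33.0% of WT IgG cells, 76.0% of A159V IgG cells and 79.2% of A159V anti-PD1 cells, and before thinning in 52.3%, 90.8% and 94.1%. Wfdc2 went from 46.9% to 84.6% and 82.4%, and Prl2c3 from 9.44% to 41.9% and 61.5%. Adam2 was found in 4.47%, 33.4% and 23.7%, and Dynap in 3.08%, 19.0% and 23.2%. The last 3 were thus not detected at this depth in most WT cells and were found in 19.0% to 61.5% of A159V cells. Hmox1 was found in 37.9%, 61.7% and 60.0%, Gdf15 in 27.1%, 44.1% and 40.6% and Nppb in 4.22%, 7.13% and 13.7% of cells. Rhox5 was found in nearly every cell, at 94.1%, 97.0% and 95.8%.

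**Figure D3:**
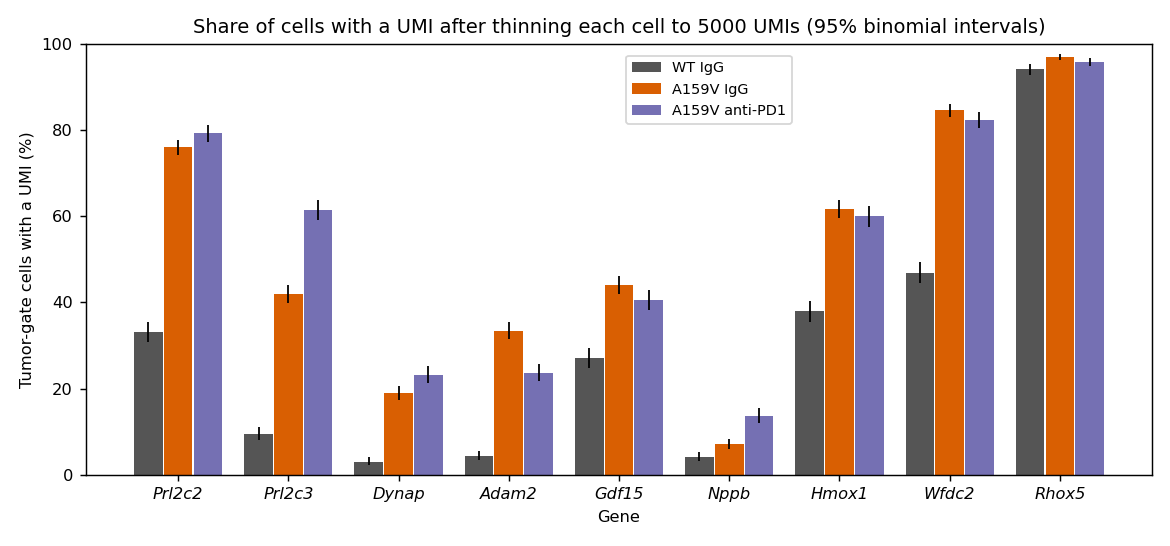
Percent of tumor-gate cells with at least 1 UMI of each gene after thinning to 5000 UMIs a cell, by library, with 95% binomial intervals. The WT IgG bar is the lowest for each gene, with Prl2c2 at 33.0% against 76.0% and 79.2%, Wfdc2 at 46.9% against 84.6% and 82.4% and Rhox5 at 94.1% against 97.0% and 95.8%.

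How UMIs were spread over cells differed between genes. The Fano factor of thinned UMIs, the variance over the mean, is 1 for counting noise alone. Rhox5 was near that, at 1.62 in WT IgG, 1.45 in A159V IgG and 1.60 for A159V anti-PD1. Hmox1 had the highest Fano factor of the 9 in each library, at 13.3, 8.49 and 11.9, and the 10% of cells with most Hmox1 UMIs held 65.9%, 51.7% and 59.5% of them. Nppb had a Fano factor of 7.93 in WT IgG against 2.38 and 3.32 in the A159V libraries, and the highest 10% of cells held 93.5%, 81.9% and 77.0% of its UMIs. The highest single cell held 27, 9 and 14 thinned Nppb UMIs and 102, 49 and 62 of Hmox1 in these libraries. How far such single cells set the Fano factors was not tested. For Prl2c2 the highest 10% of cells held 56.6% of UMIs in WT IgG and 30.2% and 29.9% in the A159V libraries. These shares of the highest 10% were taken before thinning, so depth and detection enter them. At equal depth, Prl2c2 was found in 76.0% and 79.2% of A159V cells against 33.0% of WT IgG cells. Some WT cells nonetheless reached A159V levels: 14.6% of WT IgG cells had a Prl2c2 CPM above the median A159V IgG cell, as did 9.38% for Prl2c3, 6.86% for Adam2 and 35.8% for Rhox5. These CPM values were taken before thinning, so depth enters them too.

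Counted together, a median of 2 of the 9 genes had a UMI in a thinned WT IgG cell, against 5 in either A159V library. Cells with 7 or more made up 0.629% of WT IgG, 9.78% of A159V IgG and 12.4% of A159V anti-PD1. Cells with 3 or fewer made up 78.1%, 21.7% and 17.9%, so the distributions overlapped but peaked apart. The 9 genes had been chosen as higher in A159V in these libraries, so nothing is read from this shift.

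**Figure D4:**
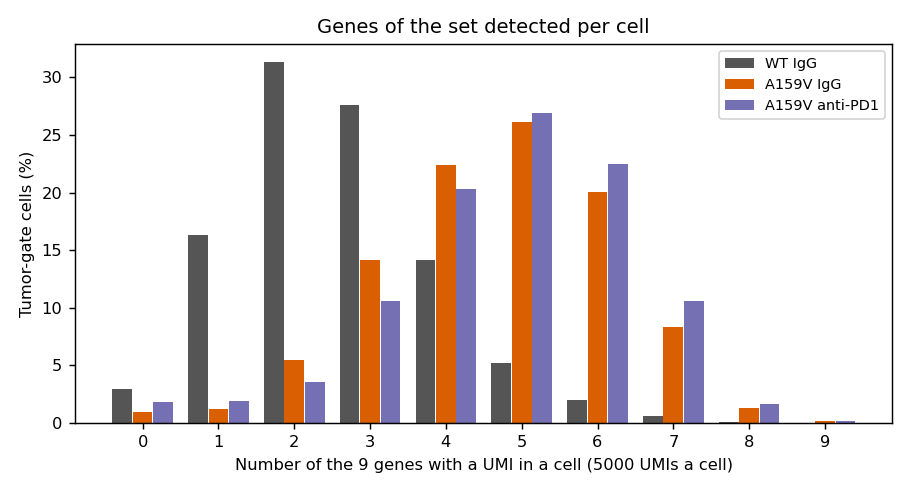
Percent of tumor-gate cells (vertical axis) by the number of the 9 genes with a UMI at 5000 UMIs a cell (horizontal axis), by library. WT IgG peaks at 2 genes (31.3% of cells), and both A159V libraries peak at 5 (26.1% and 26.9%).

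Immune cells of the same libraries (at least 2 Ptprc UMIs and 0 of Hmga2 and Tm4sf1) gave the stray level, the RNA of a gene counted in cells that should lack it. Immune levels stayed under 10% of the tumor level in all 3 libraries for 6 of the 9 genes, where 3.83% of 3759 genes did. The 9 had been chosen as genes of the tumor line in these libraries, so nothing is read from that count. For the 7 genes other than Hmox1 and Gdf15 the median was 2.78% of the tumor level in WT IgG (range 1.54% to 11.3%). For A159V IgG it was 3.42% (2.20% to 6.85%), and A159V anti-PD1 gave 2.66% (1.09% to 9.67%). Adam2 was the highest of the 7 in each library, at 11.3%, 6.85% and 9.67%, and its percentage was high in lymphoid as well as myeloid cells (10.7% and 9.93% in WT IgG, 14.8% and 6.14% for A159V anti-PD1). With cells thinned to 1000 UMIs, Prl2c3 was found in 2.96% of tumor cells and 0.145% of immune cells in WT IgG, and in 28.0% and 1.17% for A159V anti-PD1. Median depth before thinning was 2529 to 3586 UMIs in these immune cells, far below that of the tumor cells.

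Hmox1 and Gdf15 were not tumor genes alone. Hmox1 in myeloid cells stood at 573 CPM in WT IgG, 621 in A159V IgG and 1070 for A159V anti-PD1, which was 263%, 140% and 202% of the tumor level. In lymphoid cells it was at 5.50%, 4.08% and 8.36% of the tumor level, near the stray range. Gdf15 was at 44.8%, 48.1% and 24.0% of the tumor level in myeloid cells and at 5.50%, 3.53% and 7.05% in lymphoid cells. Subtracting the lymphoid level, chosen after seeing the data, left the log2 ratio under IgG at 1.05 for Hmox1 and 1.04 for Gdf15.

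WT and A159V tumor cells also differed in a second respect. Cells with 2 or more thinned UMIs of Col6a1, Col6a2, Col6a3 and Edil3, genes of the extracellular matrix, made up 53.1% of WT IgG, 12.3% of A159V IgG and 13.4% of A159V anti-PD1. Fibroblast markers summed to 2153, 3041 and 4611 CPM in these cells and to 113, 86.6 and 77.5 CPM in cells with 0 such UMIs. In WT IgG 5 of the 9 genes were at least 2-fold lower in the matrix-high than in the matrix-negative cells, where 0.428% of 3735 genes were. These were Prl2c3 (13.2 against 67.4 CPM), Prl2c2 (89.4 against 341), Dynap (3.95 against 11.6), Wfdc2 (131 against 268) and Nppb (9.69 against 20.9). Dynap and Nppb were under the 50 CPM minimum of the genes in that share. Hmox1 went the other way in WT IgG, at 257 against 177 CPM, and Rhox5 was at 926 and 965 CPM. The same split gave 2 of 9 in A159V IgG, Prl2c3 and Nppb (0.14% of 3575 genes), and 1 of 9 for A159V anti-PD1, Nppb (0.0533% of 3750). There Hmox1 had log2 ratios of -0.33 and 0.18, against 0.54 in WT IgG. Matrix-high cells were fewer in A159V, and the genes had been chosen as higher there. The counts of this split are thus not independent of that choice, and nothing is read from them.

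Within the matrix-negative cells, 511 in WT IgG and 1673 in A159V IgG, 4 of the 9 genes were at least 2-fold higher in A159V, where 1.12% of 3482 genes were. These were Adam2 (log2 ratio 2.77), Dynap (2.22), Prl2c3 (1.82) and Hmox1 (1.38). Prl2c2 fell to 0.75, Gdf15 to 0.77 and Wfdc2 to 0.96, short of 2-fold. Within the matrix-high cells, 844 and 274, the count was 6 of 9, where 1.25% of 3830 genes were, with Adam2 at 2.94 and Prl2c2 at 1.71 but Hmox1 at 0.50 and Nppb at -0.33. Dynap was among those counted but, at 31.5 CPM in A159V IgG, under the 50 CPM minimum of that share. The part of cell makeup in the difference between genotypes was not tested beyond these values.

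**Figure D5:**
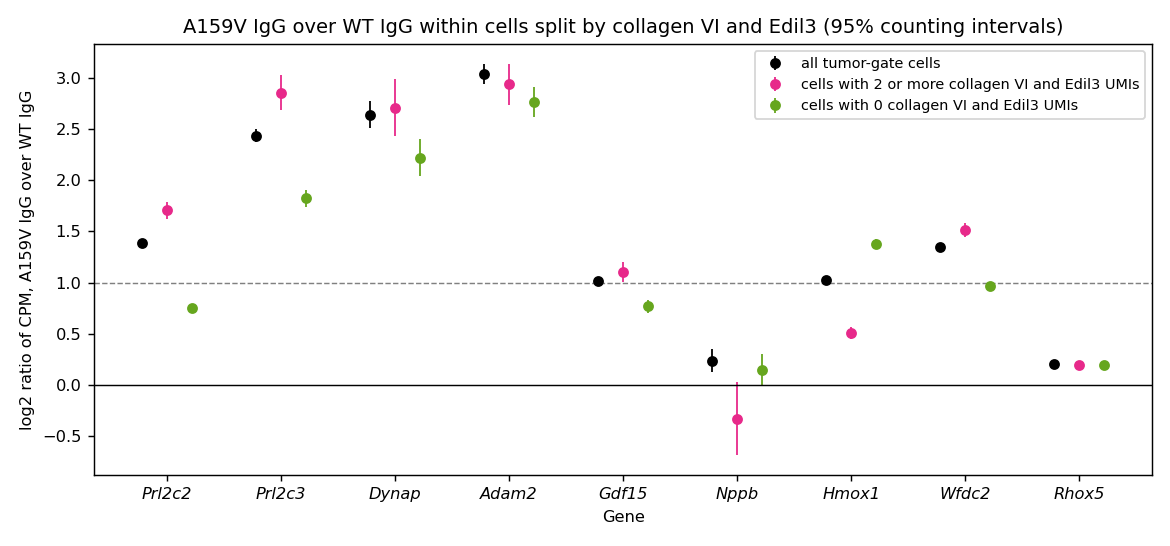
Log2 ratio for each gene, A159V IgG over WT IgG, in all tumor-gate cells and within cells split by thinned Col6a1, Col6a2, Col6a3 and Edil3 UMIs, with 95% counting intervals. Adam2, Dynap and Prl2c3 stay above 1.8 in every subset, while Prl2c2 drops from 1.38 to 0.75 in the cells without these UMIs and Hmox1 drops to 0.50 in the cells with them.

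Leaving out cells with 3 or more stromal or endothelial UMIs left 731 cells in WT IgG and 1414 in A159V IgG. There 5 of 9 genes stayed at 2-fold or more, where 1.15% of 3569 genes were, and Gdf15 (0.73) and Wfdc2 (0.94) did not. The cells were also split by cell cycle and interferon genes. Under IgG, A159V stood at least 2-fold higher for 6 of 9 genes in cells with a Mki67 or Top2a UMI (1.14% of all genes) and for 6 of 9 in cells without one (2.19%). For cells with 5 or more UMIs of Ifit1, Ifit3, Rsad2 and Isg15 it was 5 of 9 (1.19%), and for the other cells 7 of 9 (1.33%). Dynap was counted in the cells with a Mki67 or Top2a UMI and in those with 5 or more interferon UMIs. Its level there, 48.4 and 40.0 CPM in A159V IgG, was under the 50 CPM minimum of the shares. Hmox1 was lower in cycling cells of the 3 libraries split, at 157 against 337 CPM in WT IgG, 378 against 652 in A159V IgG and 430 against 868 in A159V anti-PD1. Fibroblast markers moved with this split, at 787 against 1775, 249 against 923 and 259 against 1688 CPM, and their part in the Hmox1 difference was not tested.

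Across single cells most pairs of these genes were weakly correlated. Prl2c2 and Prl2c3 stood apart, with Spearman's rho of 0.44 over 1589 WT IgG cells, 0.40 over 2229 A159V IgG cells and 0.46 over 1706 A159V anti-PD1 cells at equal depth. Both had a UMI in 8.37% of WT IgG cells, against 3.12% from the product of their shares. Since the paralogs can share reads, this rho can hold both biology and read assignment, which cannot be told apart here. The next highest rho, 0.206, was that of Prl2c2 and Dynap in WT IgG. Among 2960 genes, Hmox1 lay nearest to Ftl1, the ferritin light chain that stores iron (mean rho 0.38), followed by Mt1, a metallothionein that binds metals (0.32), and Bnip3, a gene of hypoxia and mitophagy (0.32). Rhox5 lay nearest to Ppia (0.26), Hint1 (0.23) and Cox5a (0.21). Prl2c2 lay nearest to Rps2, Npm1 (0.23 each) and Ier3 (0.22), an immediate early gene that was also among the nearest 3 of Prl2c3 (0.15) and Gdf15 (0.17). Nppb had Phlda1 and Ccn1 (0.12 each) after Prl2c2 (0.16), and Wfdc2 had S100a6 (0.20). The nearest genes of Adam2 (Snhg3, 0.11) and Dynap (Prl2c2, 0.14) gave weak values in sparse counts.

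Relatives of these genes were counted as lists at the same minimum of 50 CPM and the same 2-fold rule. Of 26 prolactin family genes, only Prl2c2 and Prl2c3 reached 50 CPM. The placental members Prl6a1 (0.367, 5.29 and 6.31 CPM in WT IgG, A159V IgG and A159V anti-PD1) and Prl8a9 (0.0918, 3.11 and 7.56 CPM) were low and stood in the same order. Of 19 whey acidic protein genes Slpi and Wfdc2 reached the minimum, and both were over 2-fold higher in A159V. Slpi, a secreted protease inhibitor, was at 194, 570 and 613 CPM in the tumor cells and at 139, 282 and 258 CPM in the immune cells. Of 34 Rhox genes only Rhox5 reached the minimum, and Rhox2h was at 39.7, 28.0 and 27.4 CPM. Of 33 Adam genes Adam2 was the only one of at least 50 CPM past 2-fold. The BNP receptor Npr1 was at 29.5, 45.6 and 39.9 CPM, and the Gdf15 receptor genes Gfral and Ret were at most 0.247 CPM.

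Hmox1 did not move with the whole of the heme and NRF2 list. Of 16 such genes of at least 50 CPM, Hmox1 alone was at least 2-fold higher under IgG and 0 were lower, with a median log2 ratio of 0.46 against 0.06 for all genes. Below 2-fold stood Gsr (0.81), Pgd (0.66), Slc7a11 (0.66), Gclm (0.60) and Txnrd1 (0.57). Apart from Pgd, these are genes of glutathione, cystine and thioredoxin metabolism. In A159V anti-PD1 over WT IgG, Slc7a11 also passed (1.06). Nqo1, a classical NRF2 target, was under the minimum and lower in A159V, at 33.3 CPM in WT IgG, 13.8 in A159V IgG and 16.4 for A159V anti-PD1. Of the stress genes around Gdf15, 7 of 11 reached the minimum, and under IgG 0 were at least 2-fold higher and 0 at least 2-fold lower. Trib3 stood at 0.82, Cebpb at 0.46, Atf4 at 0.32 and Ppp1r15a at 0.19 there, and Ddit4 at -0.89, with -1.09 in A159V anti-PD1 over WT IgG. Of 18 p53 genes 6 reached the minimum. Among these 0 were at least 2-fold higher and 2 at least 2-fold lower, where 3.61% of all genes were lower, Sesn1 (-1.46) and Btg2 (-1.14), and Cdkn1a was at 0.65.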

How the data were processed

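Single-cell suspensions of MC38 tumors were profiled with 10x Genomics 3' chemistry in 4 libraries, 1 per group. The deposited matrices hold raw UMI counts per gene and cell, which the authors made on mm10 with Cell Ranger and which precede their filtering of ambient RNA and doublets. The version is 7.2.0 per the file headers and 5.0.1 per the labels. Reads in introns are counted by default in the former. The members and lists were chosen with earlier results of these data known.

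UMIs were summed over gated cells and scaled to CPM. Exact Poisson and Clopper-Pearson intervals and delta-method intervals of log2 ratios (pseudocount 1 CPM) are at 95% and cover counting error only. Genes of at least 50 CPM in either library were compared. They make up the shares of all genes, while counts out of the 9 genes took any level unless stated. No test was run, since each group had 1 library. Immune cells had at least 1000 UMIs and more than 500 genes. Lymphoid cells had 3 or more UMIs of Cd3d, Cd3e, Cd3g, Nkg7 and Ncr1, and myeloid cells 5 or more of 7 myeloid genes. Cells were thinned without replacement (seed 1). No background RNA was subtracted and no doublet caller was run. Nearest genes had at least 50 CPM in each library and the highest mean rho. All 9 genes were named, as were list genes past 2-fold. List genes short of 2-fold and under 50 CPM, Prl6a1, Prl8a9 and Nqo1 among them, were named after their values were seen. GENCODE M21 (GRCm38) matched 32158 genes (99.6%). Promoters were from RefSeq. Scripts were tested on simulated data and used Python 3.11.15, numpy 2.4.6, scipy 1.17.1, pandas 2.3.3 and matplotlib 3.10.9.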

Additional observations from a re-analysis of the deposited data

Results flagged for a closer look

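The 16 WT anti-PD1 cells of the tumor gate with fewer than 3 stromal or endothelial UMIs fell short of the minimum of 50 cells for a comparison in the report. Their values are set here beside the like cells of WT IgG because the counting intervals of 5 genes lay apart and higher. Prl2c2 was at 493 CPM in them (268 in WT IgG), Prl2c3 at 202 CPM (49.4), Adam2 at 124 CPM (17.0), Nppb at 44.4 CPM (25.4) and Hmox1 at 568 CPM (174). That is 5 of 9 genes, where 41.6% of 4194 genes did the same, so the count is near the general share and is no result about these genes. Nppb, at 44.4 CPM, was under the 50 CPM minimum of that share. Single cells carried much of it, since 1 cell held 53.3% of the Adam2 UMIs and 1 held 50.5% of the Hmox1 UMIs. Prl2c2 was found in 14 of the 16 cells, Prl2c3 in 12 and Adam2 in 7. Wfdc2 (106 against 265 CPM) and Rhox5 (367 against 977 CPM) were lower, while Dynap (12.1 against 11.1 CPM) and Gdf15 (124 against 110 CPM) overlapped. In the like cells of A159V IgG, Prl2c2 was at 548 CPM, Prl2c3 at 217, Adam2 at 126, Nppb at 26.5 and Hmox1 at 424. Wfdc2 was at 509 CPM there, Rhox5 at 1088, Dynap at 53.7 and Gdf15 at 183. For Prl2c3 and Adam2 the A159V IgG level lay within the counting interval of the 16 cells. These groups differ in treatment as well as genotype. With so few cells, the difference between genotypes under anti-PD1 was not tested. Fibroblast markers summed to 215 CPM in the 16 cells and to 45.0 CPM in the like WT IgG cells. Their part in the values above was not tested.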

How the results depend on the processing

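The number of genes at least 2-fold higher in A159V IgG over WT IgG was 7, and fell to 4 in cells without collagen VI and Edil3 UMIs and to 4 when only members of at least 200 CPM were counted. That minimum also gave 4 in place of 7 for A159V anti-PD1 over WT IgG and 1 in place of 2 between the A159V libraries, by leaving genes out. Other settings gave 5 to 7 for each comparison with WT IgG. The genes that crossed under IgG were Gdf15, Hmox1, Wfdc2 and Prl2c2. Gdf15 was under 2-fold with stromal cells left out (0.73), in cells without collagen VI and Edil3 (0.77), the Hmga2 and Tm4sf1 minimum at 4 (0.97), the top 5% of cells left out (0.995), per-cell means (0.96), a pseudocount of 10 CPM (0.95) and median scaling (0.93). Hmox1 was under it in cells with collagen VI and Edil3 (0.50), at the marker minimum of 4 (0.95), at a pseudocount of 10 CPM (0.995) and with median scaling (0.95). Prl2c3, Dynap and Adam2 stayed at 1.82 or more in each setting under IgG but the sum of the paralogs. Subtracting the whole immune level has no meaning for Hmox1, whose immune level exceeded its tumor level in WT IgG and A159V anti-PD1; it raised the count between the A159V libraries to 3. Summing the Prl2c paralogs gave log2 ratios of 1.62, 2.12 and 0.50 in the 3 comparisons. Of 465 values of single genes under alternatives, 243 stayed within the counting interval, 222 moved out of it, and 0 of the ratios past 2-fold changed sign. Of the smaller ratios, Nppb under IgG went from 0.24 to -0.33 in cells with collagen VI and Edil3, and Hmox1 between the A159V libraries turned negative with the whole immune level subtracted. No replicate could be left out. No paired analysis was possible because each group has 1 library. Counts past 2-fold were not taken for WT anti-PD1 over WT IgG, as 16 cells are under the minimum of 50.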
